A study of Mus musculus with 6 samples.

Results

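The cytosolic ribosomal protein genes of the mouse submandibular salivary gland were followed after ionizing radiation. They were taken from the deposited expression table by symbol: every entry whose whole symbol is Rpl or Rps, digits and an optional lower-case a, plus Rplp0, Rplp1, Rplp2 and Rps4x. This gave 75 genes of 24394 in the table, 46 of the large and 29 of the small ribosomal subunit. Glands came from wild-type C57BL/6 mice in 3 groups of 2 libraries each: 6 h after 5 Gy, 24 h after 5 Gy, and an unirradiated control called T0 by the submitters. Whether both libraries of a group are from different animals is not stated, so the tests measure only the spread between the libraries. Sex, age and the part of the body irradiated are not given in the labels used here.

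The small subunit of the ribosome reads the messenger RNA and the large subunit joins the amino acids; ribosomal proteins hold the ribosomal RNA of both in shape and are made in matched amounts. Their messenger RNAs begin with a run of pyrimidines, the terminal oligopyrimidine (TOP) motif, through which the kinase mTOR and the RNA-binding protein Larp1 set how much of each message is translated. Ribosomal proteins that fail to be built in, above all Rpl5 and Rpl11 with their small ribosomal RNA partner, bind the ubiquitin ligase Mdm2 and so stabilise the tumour suppressor p53, which makes these genes of interest after DNA damage. RNA sequencing measures the amount of each message and not its translation. Salivary acinar cells secrete large amounts of protein and are rich in ribosomes.

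Expression was given as FPKM, the number of sequenced fragments of a gene relative to its exon length and to the library size, so levels can be compared between genes. In the control and 6 h libraries the values were whole multiples of a single read, and 12339893 and 11826335 reads lay behind the control libraries and 12128963 and 12577222 behind the 6 h libraries. The 24 h values had another form, with at most 6 digits and no such steps, so their depth is unknown, and time and the way of computing the values cannot be told apart in any comparison with 24 h. The 6 h comparison, made within one form of values, is therefore described first. Acinar markers and granular convoluted tubule markers, the main secretory cells of this gland, were present in every library. Over the libraries 10 acinar genes summed to 28959 to 83415 FPKM and 12 tubule genes to 55103 to 74674 FPKM. Control replicate 1 was lowest in the acinar sum. A list of 7 genes set up as sublingual and parotid markers, Prol1 among them, reached sums of 47418 to 95166 FPKM. Whether these genes are also made in the submandibular gland was not tested, so the sums do not show tissue of other glands. Adipocyte marker sums were uneven within groups, with 30.9 FPKM in control replicate 1 against 565 FPKM in control replicate 2. For 6 h these sums were 55.6 (replicate 1) and 418 (replicate 2), for 24 h 466 and 252. The share of each tissue in the libraries was not tested.

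Of the 75 genes, 71 were read in both forms of values and 4 were not: Rpl26 and Rpl30 stood at or near 0 at 6 h and in control, and Rpl34 and Rps27 stood at 0 at 24 h and at no more than 2.45 FPKM elsewhere. The 71 genes were among the most abundant messages of the gland. Their median level was 324 FPKM at 6 h, against 323 FPKM in control, and 68 of the 71 lay above 100 FPKM in each. Behind each gene stood 323 to 10924 reads per control or 6 h library, with a median of 2999. The highest was Rpl10, a protein that joins the large subunit late in its assembly, with 1104 and 1093 FPKM at 6 h and 1106 and 1014 FPKM in control. Rpl41, a very short protein of the large subunit, came next with 940.3 and 1065 FPKM at 6 h and 901 and 966 FPKM in control. The lowest of the 71 was Rps15a, a small subunit protein, with 20.7 and 22.6 FPKM at 6 h and 21.4 and 22.1 FPKM in control. The 3 highest genes (Rpl10, Rpl41, Rplp1) and the 3 lowest (Rps15a, Rpl22, Rpl39) were the same at 6 h and in control. Together the 75 genes held 2.68 and 3.0% of the FPKM sum at 6 h and 2.79 and 2.79% in control. The 20 entries with the highest mean, none of them ribosomal, held 68.8 to 73.1% of these sums.

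At 6 h after 5 Gy no ribosomal protein gene was called higher or lower than in control, while Mdm2 and Cdkn1a, both p53 targets, rose in the same libraries. Calls are genes with an adjusted p under 0.05 in limma on log2(FPKM + 1), fitted to all 6 libraries with Benjamini-Hochberg adjustment over 11674 genes. By this rule 0 of 71 ribosomal protein genes were higher and 0 lower at 6 h, where 0.694% of all genes were called higher and 0.317% lower. An unadjusted p under 0.05 was reached by 2 of the 71, against 14.8% of all genes. A count-based fit with limma voom on the recovered reads also called 0 of 71, where 0.674% of all genes were called higher and 0.42% lower. The median log2 fold change of the 71 genes at 6 h over control was 0.01, with quartiles of -0.04 and 0.07, and that of all genes was -0.02. Of the 71 values, 38 lay above 0 and 33 below. The median was 0.01 in the large subunit (43 genes) and 0.02 in the small subunit (28 genes).

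The width of the intervals shows how closely each change was measured, before adjustment over all genes tested. The spread behind it came from all libraries, those at 24 h included. A change larger than the half-width need not be called: Rps28, at 0.41, was not. The 95% confidence interval of the 6 h over control log2 fold change had a median half-width of 0.28. It lay inside -1 to 1 for 70 of the 71 genes, the exception being Rpl36, and inside -0.5 to 0.5 for 66. The median absolute difference between the 6 h and control means was 0.06 on the log2 scale, against 0.11 between the 6 h replicates and 0.06 between the control replicates. The 6 h replicates differed by a common shift, with replicate 2 above replicate 1 by a median of 0.11. Left without 6 h replicate 2, the median at 6 h over control was -0.04. Both 6 h libraries lay above both control libraries in 16 genes (22.5%, against 19.4% of all genes) and below them in 5 (7.04%, against 24.9% of all genes).

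**Figure D1:**
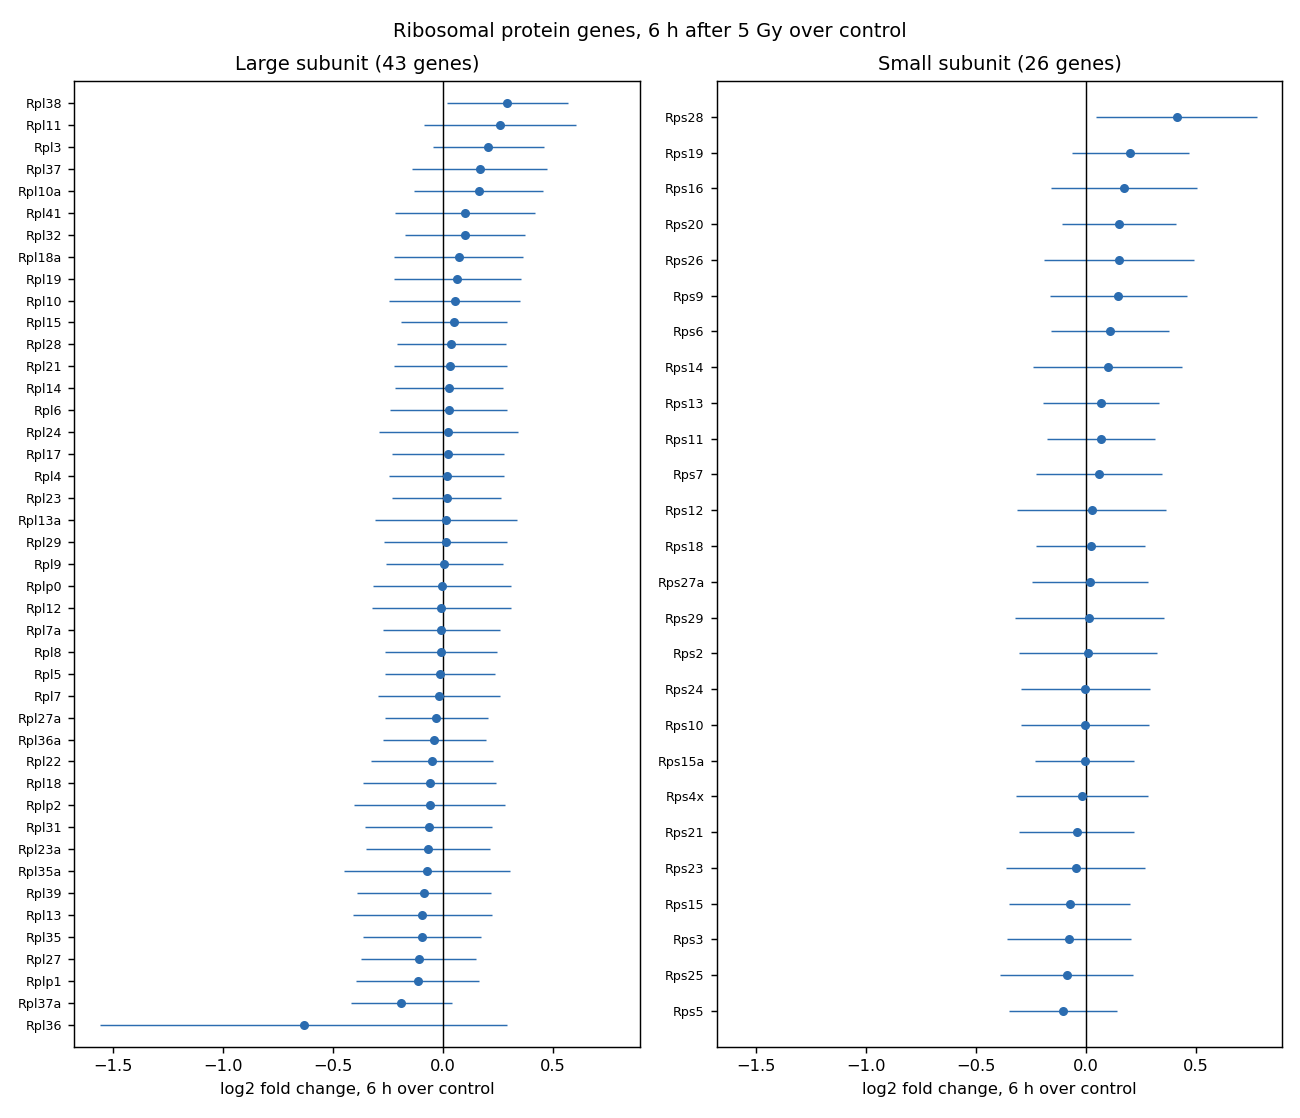
Log2 fold change at 6 h over control (horizontal axis) of 69 of the 71 ribosomal protein genes, large subunit on the left and small subunit on the right, with 95% confidence intervals from limma as bars. Nearly every interval crosses 0; those of Rps28 and Rpl38 lie above it at an unadjusted level, and Rpl36 has the widest interval, from -1.56 to 0.29.

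The 3 largest upward values belonged to Rps28, Rpl38 and Rpl11, and none passed the adjusted threshold. Rps28, a small subunit protein at the messenger RNA exit side, had 271 and 285 FPKM at 6 h and 204 and 213 FPKM in control. These came from 1073 and 1174 reads at 6 h and 824 and 823 reads in control. Both 6 h libraries were above both control libraries, and the log2 fold change was 0.41 ± 0.15 (SE, limma adjusted p = 0.289). Rpl38, a large subunit protein known in mouse for its part in translating Hox messages, had 330.0 and 371 FPKM at 6 h and 288 and 283 FPKM in control. Its groups did not overlap either, with a log2 fold change of 0.29 ± 0.11 (limma adjusted p = 0.314). Rpl11 had 406 and 409 FPKM at 6 h and 383 and 302 FPKM in control. Its control libraries differed more than those of any other of the 71 genes (log2 difference 0.34). Its log2 fold change was 0.26 ± 0.14 (limma adjusted p = 0.469).

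The 3 largest downward values belonged to Rpl36, Rpl37a and Rplp1, also without a call. Rpl36, a large subunit protein, had 158 and 65.1 FPKM at 6 h and 151 and 165 FPKM in control. One library, 6 h replicate 2, stood apart: it held 333 reads, against 778 in 6 h replicate 1 and 758 and 795 in control. Its log2 fold change was -0.63 ± 0.38 (limma adjusted p = 0.508). Rpl37a, another large subunit protein, had 183 and 181 FPKM at 6 h and 203 and 212 FPKM in control, groups that did not overlap (log2 fold change -0.19 ± 0.09, limma adjusted p = 0.42).

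The proteins known to bind Mdm2 showed no call at 6 h, although Mdm2 itself did. Rpl5, which carries the small ribosomal RNA with Rpl11, had 219 and 236 FPKM at 6 h and 221 and 238 FPKM in control. Rpl23, a large subunit protein that binds Mdm2 as well, had 283 and 281 FPKM at 6 h and 273 and 285 FPKM in control. Both genes overlapped between the groups, with log2 fold changes of -0.01 ± 0.10 and 0.02 ± 0.10 (limma adjusted p = 0.978 and 0.975). Mdm2 had 36.6 and 37.6 FPKM at 6 h and 17.2 and 16.3 FPKM in control and rose 2.15-fold (log2 fold change 1.10 ± 0.11, limma adjusted p = 0.0103). Without the expression filter Mdm2 missed the threshold (limma adjusted p = 0.0599). With each library left out in turn its log2 fold change was 1.07 to 1.14, but Mdm2 did not keep its call in these fits. Cdkn1a, the p53 target that halts the cell cycle, had 39.7 and 44.7 FPKM at 6 h and 2.36 and 2.13 FPKM in control (log2 fold change 3.73 ± 0.10, limma adjusted p = 0.000104). With Mdm4, a relative of Mdm2 (1.0 ± 0.12, limma adjusted p = 0.0205), 3 of 8 tested genes of p53 feedback and the ribosome checkpoint rose at 6 h and 0 fell. Of all genes, 0.694% were called higher and 0.317% lower.

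The stalk proteins, which recruit translation factors to the large subunit, had levels at 6 h close to those in control. Rplp0, the base of the stalk, had 566 and 649 FPKM at 6 h and 645 and 573 FPKM in control. Rplp1 had 648 and 699.8 FPKM at 6 h and 727 and 732 FPKM in control, and its partner Rplp2 had 242 and 275 FPKM at 6 h and 255 and 285 FPKM in control. Only Rplp1 of these had groups that did not overlap, the 6 h libraries being lower (log2 fold change -0.12 ± 0.11, limma adjusted p = 0.706).

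Small subunit genes chosen for roles in signalling, repair or disease had no call at 6 h. Rps6, the substrate of the S6 kinases downstream of mTOR, had 346 and 394 FPKM at 6 h and 342 and 342 FPKM in control. Rps19, mutated in human Diamond-Blackfan anaemia, had 150.0 and 169 FPKM at 6 h and 131 and 145 FPKM in control. Both lay higher in each 6 h library than in each control library, with log2 fold changes of 0.11 ± 0.11 and 0.20 ± 0.11 (limma adjusted p = 0.712 and 0.462). Rps3, which sits where the messenger RNA enters and also takes part in DNA repair, had 141 and 166 FPKM at 6 h and 161 and 162 FPKM in control. Rps4x, the X-linked form of Rps4, had 492 and 567 FPKM at 6 h and 524 and 545 FPKM in control, and Rps27a, made as a fusion with ubiquitin, had 244 and 252 FPKM at 6 h and 232 and 259 FPKM in control. The groups of these 3 genes overlapped. Rpl13a, a large subunit protein that can leave the ribosome to silence inflammatory messages in human cells, had 209 and 248 FPKM at 6 h and 213 and 239 FPKM in control, also overlapping.

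Rps27l, the p53-inducible paralog of Rps27 and no member by symbol, had a larger log2 fold change at 6 h than any of the 71 members. It had 221 and 219.5 FPKM at 6 h and 137 and 149 FPKM in control. The log2 fold change was 0.62 ± 0.10, and the limma adjusted p of 0.0673 missed the threshold; voom on reads gave an adjusted p of 0.065 and centring each library by exon length gave 0.0373. Other settings gave 0.0523 to 0.433. A further 6 cytosolic ribosomal protein genes with symbols outside the pattern (such as Rpsa, Fau, Gnb2l1 and Rps3a1) had 0 calls at 6 h and a median log2 fold change of -0.01.

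**Figure D2:**
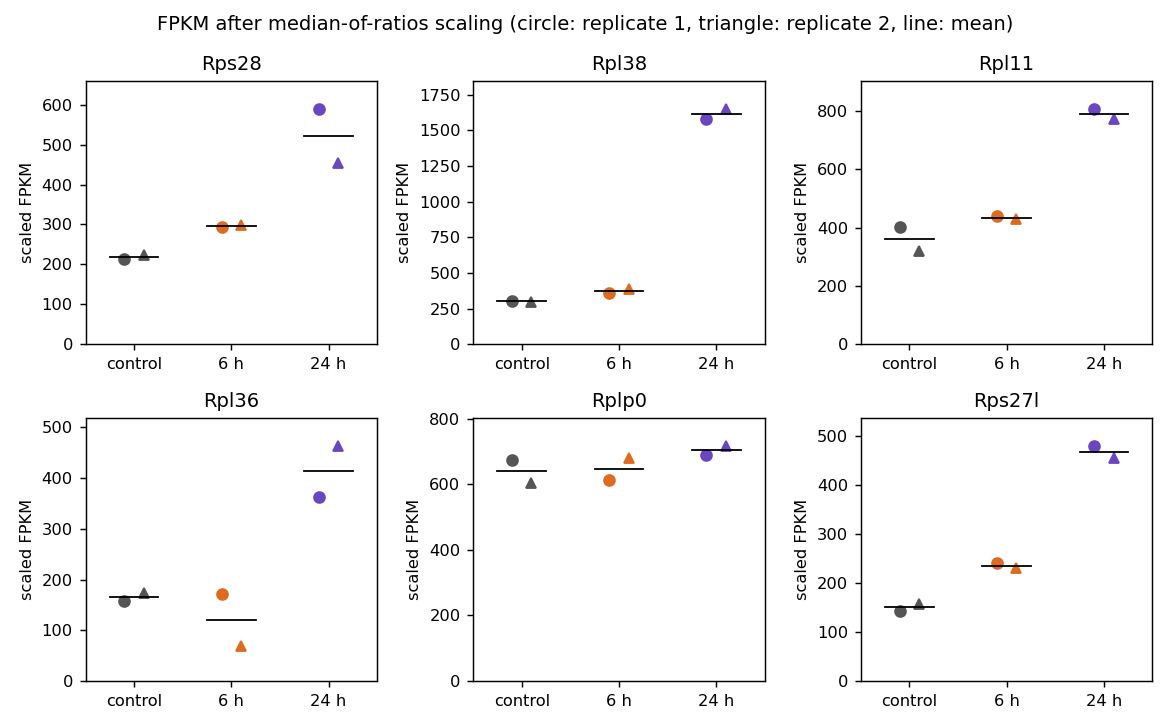
FPKM after median-of-ratios scaling (vertical axes, starting at 0) of 5 ribosomal protein genes and the paralog Rps27l in each library, by group in order of time; circles are replicate 1, triangles replicate 2 and lines the mean of 2. Rps28, Rpl38 and Rps27l lie higher in both 6 h libraries than in both controls, Rpl36 is low in 6 h replicate 2 alone, and all 6 genes have their highest mean at 24 h, where the values were computed in another way.

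Genes that make, assemble and regulate ribosomes were read at 6 h in the same fit, where 0.694% of all genes were called higher and 0.317% lower. Of 57 tested ribosome assembly factors 0 were called at 6 h, as were 0 of 16 genes of RNA polymerase I transcription, 0 of 17 TOP messages outside the ribosome and 0 of 77 mitochondrial ribosomal proteins. Their median log2 fold changes at 6 h were 0.00, 0.10, 0.10 and -0.03. The assembly factor with the smallest p was Sbds, which frees the large subunit for its first round of translation (0.37 ± 0.09, limma adjusted p = 0.17). Myc, a driver of ribosome production, had 4.36 and 4.11 FPKM at 6 h and 5.91 and 6.63 FPKM in control (log2 fold change -0.47 ± 0.12, limma adjusted p = 0.161). Among 19 genes of mTOR and TOP signalling 2 rose, and both restrain mTOR. Sesn2, a p53-inducible stress sensor, had 11.1 and 10.9 FPKM at 6 h and 1.8 and 1.24 FPKM in control (log2 fold change 2.26 ± 0.14, limma adjusted p = 0.00296). Ddit4 had 22.1 and 21.4 FPKM at 6 h and 9.96 and 11.6 FPKM in control (log2 fold change 0.95 ± 0.13, limma adjusted p = 0.0381).

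**Figure D3:**
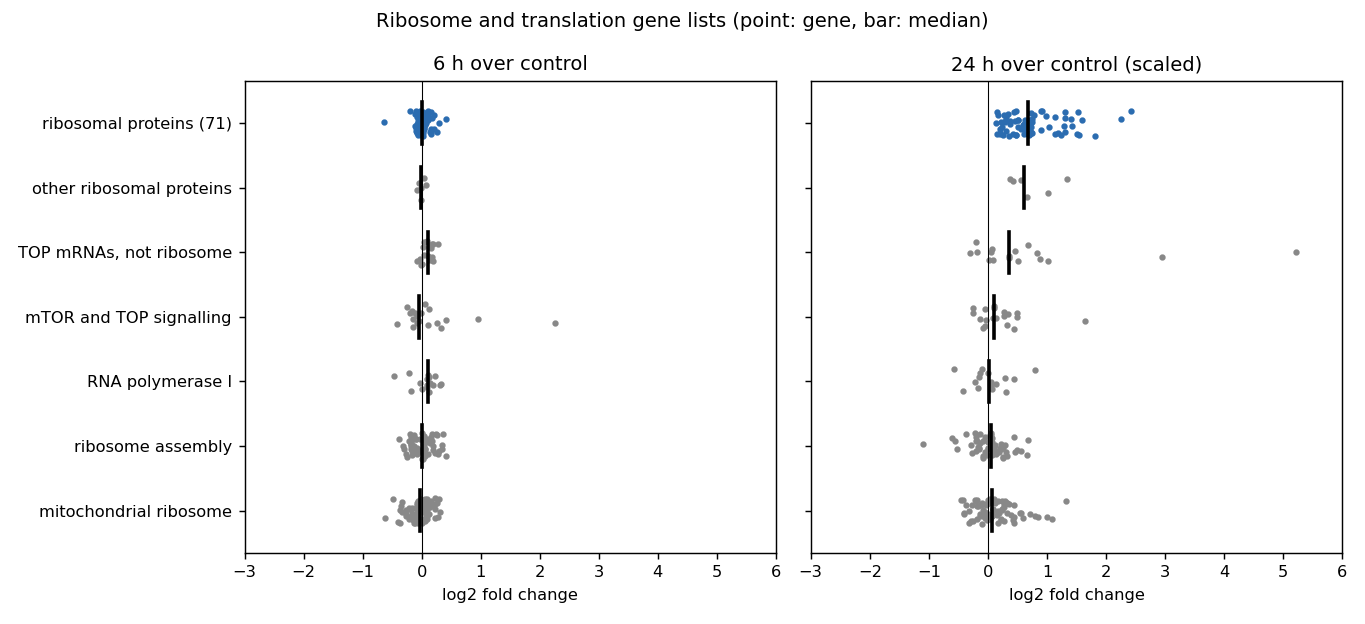
Log2 fold changes at 6 h over control (left) and 24 h over control after scaling (right) for 71 ribosomal protein genes and 6 lists of related genes; each point is a gene, placed with random vertical jitter, and bars are medians. At 6 h the ribosomal protein genes cluster around 0, and at 24 h their median is 0.67, against 0.07 for mitochondrial ribosomal proteins and 0.04 for assembly factors; under quantile normalization 28 of the 71 lie below 0 at 24 h.

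At 24 h the ribosomal protein genes lay above control as a group, by an amount that depended on the scaling, and by most in the shortest genes. Values were first divided by median-of-ratios factors over the 6 libraries. On that scale 52 of 71 genes rose and 0 fell at 24 h, where 10.1% of all genes were called higher and 7.57% lower. The calls covered 30 of 43 large subunit and 22 of 28 small subunit genes, and both 24 h libraries lay above both control libraries in all 71, against 31.3% of all genes. The median log2 fold change, above 0 under all 4 scalings tried, was 0.67, and that of all genes -0.0016. Of the called genes 17 were at least 2-fold higher, against 3.92% of all genes called and at least 2-fold higher. The 6 h libraries, which share the form of values with control, gave a like picture beside 24 h: 50 of 71 genes rose and 0 fell in 24 h over 6 h, where 11.7% of all genes were called higher and 8.35% lower, with a median of 0.63. These comparisons share the 24 h libraries. In bulk tissue, fewer cells of a type and less RNA per cell cannot be told apart.

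The size of the shift depended on the scaling. On FPKM as deposited, where the median of all genes itself stood at 0.20, the ribosomal protein median was 0.92 and 70 of 71 were called higher and 0 lower at 24 h over control, against 21.0% of all genes higher and 4.3% lower. After centring each library within classes of exon length, an alternative added after the data were seen, the median was 0.38, 32 genes were called higher and 1, Rplp2, lower, against 8.5% and 6.54% of all genes. After quantile normalization, which forces all libraries to one distribution, the median was 0.10, with 43 genes above 0 and 28 below, and 13 were called higher and 0 lower, against 8.45% and 8.07% of all genes. In 24 h over 6 h the same 3 settings called 68 genes higher as deposited (23.4% of all genes higher, 4.31% lower), 28 higher and 1 lower with exon length centring (9.88% and 7.44%), and 12 higher after quantile normalization (9.83% and 8.97%). Under all 4 scalings 12 genes were called higher, among them Rpl13a, Rpl35a, Rpl36a, Rpl38, Rpl39, Rps15a, Rps26 and Rps29. The same 12 were called under all 4 scalings in 24 h over 6 h. When the 6 libraries were dropped one at a time, many of the 52 genes lost their call at least once. More calls were lost without both control replicate 1 and 24 h replicate 2. Shares of all genes are not given for these fits, so a general loss of calls cannot be told apart from one in these genes.

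Rpl38 and Rpl39 had the largest values at 24 h. Rpl38 had 1581 and 1648 scaled FPKM at 24 h and 301 and 299 in control, 5.37-fold higher (log2 fold change 2.42 ± 0.10, limma adjusted p = 5.71e-05). Rpl39, which lines the exit tunnel of the large subunit, had 415 and 362 scaled FPKM at 24 h and 75.6 and 84.9 in control (log2 fold change 2.26 ± 0.12, limma adjusted p = 0.000112). For both genes the 24 h libraries stood several times above every other library. Rps26, at the messenger RNA exit of the small subunit, had 1581 and 1996 scaled FPKM at 24 h and 498 and 515 in control (log2 fold change 1.81 ± 0.14, limma adjusted p = 0.000624). The small subunit genes Rps29, Rps21, Rps18 and Rps20 had log2 fold changes between 1.5 and 1.59 and limma adjusted p from 0.000244 to 0.000645.

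Other members of the groups described at 6 h differed among themselves at 24 h. Rpl11 had 807 and 773 scaled FPKM at 24 h and 402 and 319 in control and rose by a log2 value of 1.14 ± 0.14 (limma adjusted p = 0.00326), without a call after centring by exon length or under quantile normalization (limma adjusted p = 0.0552 and 0.198). Its partner Rpl5 had 293 and 303 at 24 h and 232 and 251 in control, without a call (log2 fold change 0.30 ± 0.10, limma adjusted p = 0.0809). Rpl23 rose by 0.50 ± 0.10 (limma adjusted p = 0.0181), but its value under quantile normalization was -0.04. In the stalk, Rplp0 had 690.4 and 718 scaled FPKM at 24 h and 676 and 604 in control, the smallest value of all 71 (log2 fold change 0.14 ± 0.12, limma adjusted p = 0.455). Rplp1 rose by 0.60 ± 0.11 (limma adjusted p = 0.014), and was below 0 both under quantile normalization, at -0.28, and after centring by exon length, at -0.24. Rplp2 had a log2 fold change of 0.29 ± 0.14 (limma adjusted p = 0.205), and was called lower after centring by exon length, at -0.55.

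Of the small subunit genes, Rps19 rose by 0.75 ± 0.10 and Rps27a by 0.73 ± 0.10 (limma adjusted p = 0.00525 and 0.00608), and neither was called under quantile normalization (limma adjusted p = 0.065 and 0.493). Rps4x rose by 0.43 ± 0.11 (limma adjusted p = 0.0449), lost its call with the replicate number as a block (limma adjusted p = 0.0558) and stood at -0.31 under quantile normalization. Rps6 and Rps3 had log2 fold changes of 0.20 ± 0.10 and 0.26 ± 0.10 without a call (limma adjusted p = 0.223 and 0.137). The smallest values beside Rplp0 were those of Rpl27a and Rpl4, both large subunit proteins, at 0.15 ± 0.09 and 0.15 ± 0.10 (limma adjusted p = 0.306 and 0.353). Rps15a, the lowest of the 71 in level, had 32.4 and 33.2 scaled FPKM at 24 h and 22.4 and 23.3 in control (log2 fold change 0.50 ± 0.09, limma adjusted p = 0.0128). Its 24 h libraries, too, stood above all others. The 19 genes without a call at 24 h over control included Rpl6, Rpl8, Rpl9, Rpl10, Rpl10a, Rpl14, Rpl15, Rps2 and Rps12, and among the 19 Rpl36 had the largest value (1.30 ± 0.40, limma adjusted p = 0.0746); the fit shares its estimate of spread with the 6 h libraries, of which replicate 2 was low in this gene.

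The 24 h over control values were smaller in longer ribosomal protein genes, whose exon lengths run from 327 to 2567 bases with a median of 703. Across the 71 genes the Spearman correlation of log2 fold change and exon length was -0.63 at 24 h over control and 0.05 at 6 h over control; genes are not independent replicates, and all share the same libraries. Among 5156 other genes in the same length range it was -0.18 at 24 h over control. In genes of 300 to 400 bases the median was 1.59 for 5 ribosomal protein genes and 0.81 for 31 others. For 500 to 600 bases the medians were 0.98 for 13 ribosomal protein genes and 0.55 for 105 others, and for 800 to 1000 bases 0.46 for 13 and 0.10 for 408. In the class of 1000 to 1500 bases they were 0.47 for 9 ribosomal protein genes and 0.03 for 1236 others. Other genes of 300 to 800 bases thus also had medians above 0, while 110 genes under 300 bases, none of them ribosomal, had a median of -2.11. The ribosomal protein median lay above that of other genes in every class that held any of them.

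**Figure D4:**
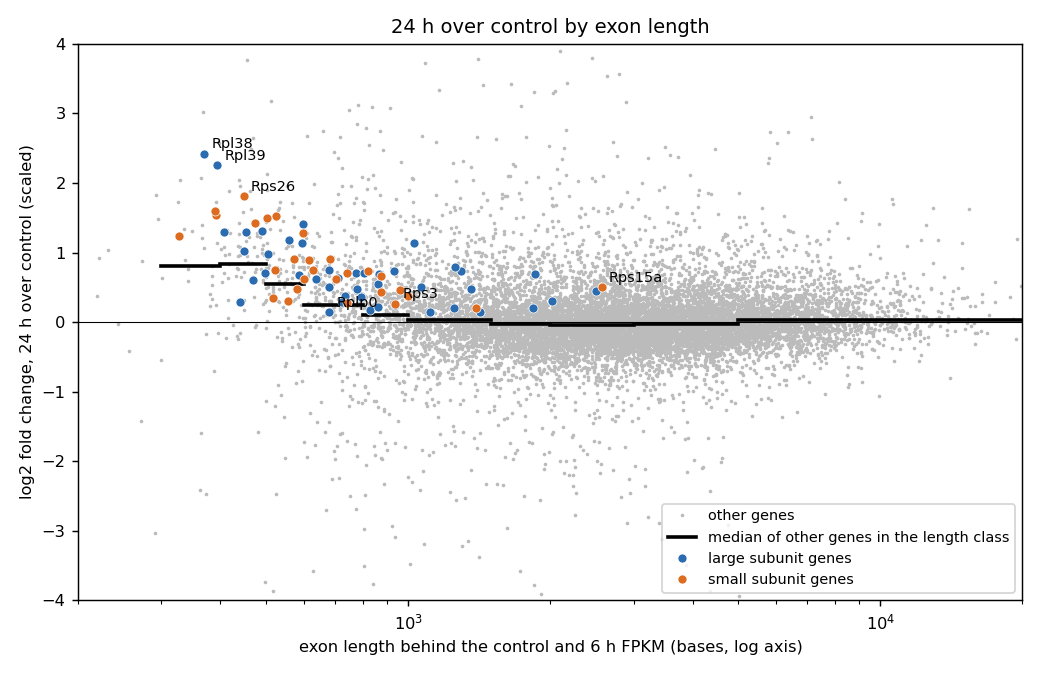
Log2 fold change at 24 h over control after scaling (vertical axis) against exon length in bases (horizontal log axis) for large subunit genes in blue, small subunit genes in orange and other tested genes in grey. Black lines mark the median of the other genes in each length class from 300 bases up. The class under 300 bases, with a median of -2.11, has no line, and points beyond the axis limits are not drawn. Ribosomal protein genes of 300 to 400 bases have a median of 1.59 and those of 1000 to 1500 bases 0.47, above the 0.81 and 0.03 of other genes of those lengths.

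Ribosomal protein genes have many processed copies in the mouse genome, and how reads were shared between gene and copy is not given in the sources used here. Searching each coding sequence against the GENCODE transcripts gave a median of 5 other genes with at least 95% identity over at least 80% of the coding sequence, with a maximum of 57 for Rpl21. The median log2 fold change at 24 h over control was 0.71 in 5 genes without such a copy, 0.70 in 28 genes with 1 to 4 and 0.62 in 38 genes with 5 or more. The Spearman correlation with the number of copies was -0.07 over the 71 genes.

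Of the 4 genes not read in both forms of values, 2 were low at 6 h and in control and at 0 at 24 h. Rps27 (chr3:90212522-90213651, minus strand, GRCm38) had 0 and 0 FPKM at 24 h, 0.717 and 1.8 FPKM at 6 h and 0.564 and 0.588 FPKM in control, far below every other small subunit gene. Its retrocopy Rps27rt (chr9:114982366-114982739, minus strand) was listed at 3119 and 2860.3 FPKM at 24 h and at 0 in all 6 h and control libraries. Rpl34 (chr3:130726831-130730398, minus strand) had 0 and 0 FPKM at 24 h, 1.08 and 0.346 FPKM at 6 h and 0.823 and 2.45 FPKM in control. Its copy Rpl34-ps1 (chr6:71124610-71124963, plus strand) was listed at 373 and 488 FPKM at 24 h and at 0 in the other 4 libraries. For each pair, then, the copy carried the level at 24 h and neither gene carried one at 6 h or in control. No fold change is given for these genes.

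The coding sequences of both pairs are shown because reads of gene and copy can be told apart only where the letters differ; they are from GENCODE M21 transcripts, without the stop codon. Over the 252 bases of the Rps27 coding sequence the copy Rps27rt is identical, so it is printed once. Over 351 bases Rpl34 and Rpl34-ps1 are 99.4% identical and differ by T132C and C318G, counted from the first base of the start codon with the base of Rpl34 first. Bases 121 to 330 of both are given, with these positions in capitals.
Rps27: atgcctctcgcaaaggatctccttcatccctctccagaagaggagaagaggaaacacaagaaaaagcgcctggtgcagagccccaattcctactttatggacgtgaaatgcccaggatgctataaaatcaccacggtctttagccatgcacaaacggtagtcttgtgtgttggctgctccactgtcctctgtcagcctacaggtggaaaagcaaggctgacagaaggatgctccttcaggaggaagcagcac
Rpl34: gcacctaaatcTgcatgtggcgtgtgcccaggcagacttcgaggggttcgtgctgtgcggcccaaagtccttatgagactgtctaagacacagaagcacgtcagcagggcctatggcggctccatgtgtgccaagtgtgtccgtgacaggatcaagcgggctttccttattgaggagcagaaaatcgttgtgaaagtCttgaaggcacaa
Rpl34-ps1: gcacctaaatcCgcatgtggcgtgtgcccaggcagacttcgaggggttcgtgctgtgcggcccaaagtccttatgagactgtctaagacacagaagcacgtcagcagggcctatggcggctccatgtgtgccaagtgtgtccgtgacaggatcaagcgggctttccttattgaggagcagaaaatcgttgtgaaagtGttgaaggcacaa

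The other pair of genes ran the opposite way. Rpl26 (chr11:68901583-68906989, plus strand), whose protein binds the p53 message in human cells, had 29.4 and 10.6 FPKM at 24 h and was listed at 0 in all 6 h and control libraries. Rpl30 (chr15:34440505-34443640, minus strand) had 16.1 and 18.9 FPKM at 24 h, 0 and 0 FPKM at 6 h and 0.129 and 0 FPKM in control. Both passed the expression filter only through the 24 h libraries, and at 24 h they still lay below all other ribosomal protein genes but Rpl34 and Rps27. Small nucleolar RNA genes inside ribosomal protein introns, which guide changes of ribosomal RNA bases, showed the opposite pattern to Rpl26 and Rpl30. Of 30 such entries in 22 host genes, 27 were above 0 in a control or 6 h library and all 30 stood at 0 in both 24 h libraries. Low 24 h values were not confined to these entries: 110 tested genes under 300 bases had a median of -2.11 at 24 h over control. The share of all short entries at 0 at 24 h was not counted.

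**Figure D5:**
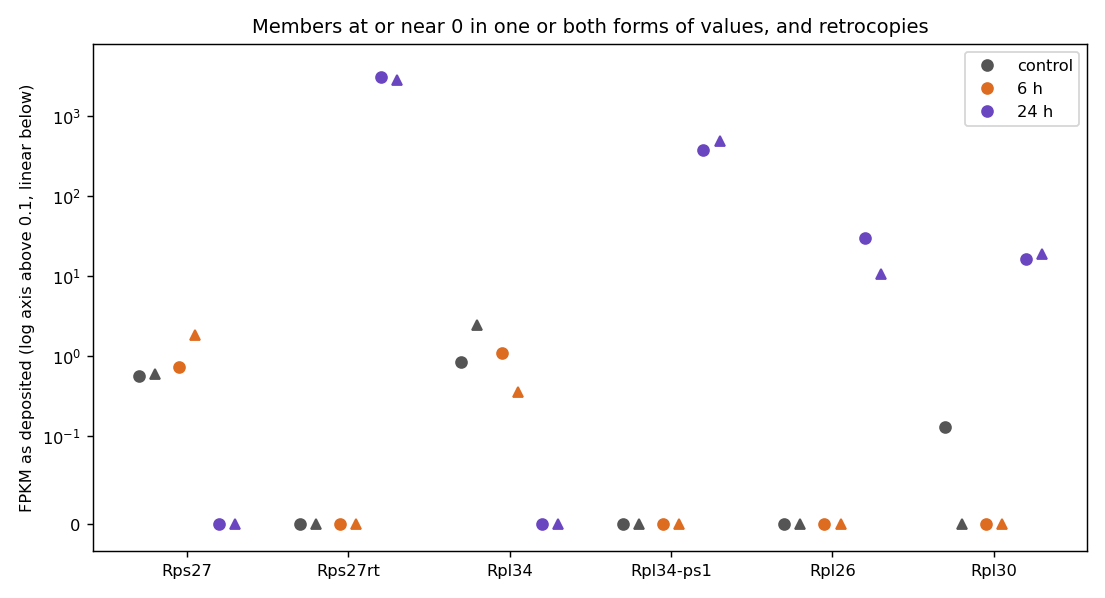
FPKM as deposited (vertical axis, logarithmic above 0.1 and linear below) of the 4 ribosomal protein genes not read in both forms of values and 2 retrocopies, in each library by group; circles are replicate 1 and triangles replicate 2. Rps27rt stands near 3000 and Rpl34-ps1 near 400 FPKM at 24 h and at 0 elsewhere, while Rps27 and Rpl34 are at 0 at 24 h.

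Related genes of the ribosome and of translation were read at 24 h in the same fit, where 10.1% of all genes were called higher and 7.57% lower. Of the 6 ribosomal protein genes outside the symbol pattern 4 rose and 0 fell at 24 h over control, with a median of 0.61. Those that rose included Rpsa, Rps3a1 and Fau, made as a fusion with a ubiquitin-like protein (1.02 ± 0.10, limma adjusted p = 0.00134). Of 7 paralogs with restricted or inducible expression 4 were tested, of which Rps27l and Rpl22l1 rose and Rps4l, a paralog of Rps4x, fell with a log2 fold change of -0.84 ± 0.21 (limma adjusted p = 0.0417). Rps27l had 479.7 and 455 scaled FPKM at 24 h and 143 and 158 in control (log2 fold change 1.63 ± 0.10, limma adjusted p = 0.000235). After centring by exon length its log2 fold change over control was 0.79 at 24 h and 0.70 at 6 h. Under quantile normalization the 2 values were 1.17 and 0.69, and on FPKM as deposited the 24 h value was 1.88. Rpl22l1, the paralog of Rpl22, had 113 and 120.2 scaled FPKM at 24 h and 43.6 and 54.1 in control (log2 fold change 1.24 ± 0.12, limma adjusted p = 0.00154). Of 16 TOP messages outside the ribosome that averaged at least 1 FPKM in both forms 7 rose and 0 fell, with a median of 0.35. The smallest p was that of Naca, which guides nascent chains, with 305 and 293 scaled FPKM at 24 h and 37.2 and 38.7 in control. A further gene of the list, Hnrnpa1, an RNA-binding protein, had 47 and 59.5 scaled FPKM at 24 h and 0.581 and 0.326 in control and passed the expression filter only through the 24 h libraries. The part of the form of values in such differences was not tested.

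Genes that build ribosomes, and those of the mitochondrial ribosome, were read beside the same background of 10.1% of all genes higher and 7.57% lower. Of 57 ribosome assembly factors 5 rose and 3 fell, with a median of 0.04; Npm1, a nucleolar chaperone, rose by 0.66 ± 0.09 and Tsr1, which matures the small subunit, fell with a log2 fold change of -1.10 ± 0.11 (limma adjusted p = 0.00646 and 0.00167). The other assembly genes called were Imp3, Nhp2, Nop10 and Nsa2, higher, and Gar1 and Rcl1, lower. Of 16 RNA polymerase I genes 1 rose and 1 fell, the polymerase subunit gene Polr1d at 0.79 ± 0.11 and Myc at -0.58 ± 0.12 (limma adjusted p = 0.00512 and 0.0241). Of 77 mitochondrial ribosomal proteins 10 rose and 2, Mrpl17 and Mrpl37, fell, with a median of 0.07, and after centring by exon length 3 rose and 5 fell. Of 19 genes of mTOR and TOP signalling 2 rose and 0 fell, Sesn2 and Rps6kb1, which encodes an S6 kinase (log2 fold changes 1.65 ± 0.15 and 0.49 ± 0.10, limma adjusted p = 0.00103 and 0.0239).

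Some markers of other cell types were higher at 24 h, and their lists are set beside the 10.1% of all genes called higher and 7.57% called lower. The summed level of 11 T and NK cell markers was 36.3 and 52.2 FPKM at 24 h and 13.6 and 16.2 FPKM in control, and of 4 that averaged at least 1 FPKM in both forms of values 2 rose (Cd3g and Nkg7). For 9 macrophage markers the sum was 489 and 424 FPKM at 24 h and 180.4 and 177 FPKM in control, with 4 of 9 rising (C1qa, C1qb, C1qc and Cd68). Epidermal markers, of which 1 of 2 in both forms rose (Krt10), summed to 41.9 and 284 FPKM at 24 h and 3.45 and 5.52 FPKM in control, and none of the markers of these 3 types was at 0 in all libraries. Skeletal muscle markers had 0 calls among 2 in both forms, with sums of 11.2 and 14.6 FPKM at 24 h and 3.77 and 4.31 FPKM in control. Lck, Krt1, Krtdap, Mylpf and Tnnt3 were also called higher but passed the expression filter only through the 24 h libraries, as did the tubule markers Klk1b26 and Ren1. Of the other 10 granular convoluted tubule markers 0 rose and 8 fell. Of 10 acinar markers 1 rose (Cldn10), and of 6 basal and myoepithelial markers 2 rose (Krt5 and Trp63) and 1 fell (Acta2). No call was made among 6 fibroblast, 5 endothelial, 5 adipocyte, 4 B and plasma cell, 2 neutrophil and 6 sublingual and parotid markers. The adipocyte sums differed widely within groups. The 6 sublingual and parotid markers had a median log2 fold change of 1.57, with 5.27 ± 3.70 for Bpifa2 and -0.55 ± 0.36 for Prol1. The neutrophil marker S100a9 had 1.49 ± 0.72. In these lists a difference between groups could therefore go without a call. Of 2 erythrocyte markers 1 fell (Alas2). At 6 h, where the ribosomal protein genes had no call, the T and NK cell sum was 5.45 and 6.66 FPKM and the macrophage sum 132 and 164 FPKM, with 1 macrophage marker, Mrc1, called lower. The part of these cells in the ribosomal protein values was not tested. The ribosomal protein genes held 7.59 and 4.22% of the FPKM sum at 24 h and 2.79 and 2.79% in control; without the 20 highest entries these shares were 15.6 and 14.0% at 24 h and 9.43 and 9.53% in control.

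Promoters of the ribosomal protein genes share letters around their start sites that the symbol rule did not use. RefSeq (GRCm38.p6) start regions matched 55 of the 75 symbols. A run of at least 10 pyrimidines (C or T) on the sense strand within 50 bases of the start was found in 39 of 55 (70.9%), against 18% of 27025 promoters. The letters CGGAAG, the core bound by ETS family factors, were found on either strand in the 250 bases before to 50 after the start in 38 of 55 (69.1%), against 17.2% of all promoters. CTTTCC on the sense strand within 50 bases of the start, which a run of pyrimidines can contain, was found in 29.1%, against 4.67%. The windows from 30 bases before to 30 after the start are shown for Rpl38, with the largest 24 h value, for Rpl11 and Rps6, and for Rpl4, among the smallest at 24 h; capitals mark the longest pyrimidine run in the window.
Rpl38 (chr11:114668550-114668609, plus strand): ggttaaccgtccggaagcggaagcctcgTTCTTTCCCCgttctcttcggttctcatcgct
Rpl11 (chr4:136053364-136053423, minus strand): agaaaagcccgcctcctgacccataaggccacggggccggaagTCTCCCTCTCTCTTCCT
Rps6 (chr4:86857338-86857397, minus strand): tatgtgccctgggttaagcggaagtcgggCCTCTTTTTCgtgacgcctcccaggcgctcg
Rpl4 (chr9:64173357-64173416, plus strand): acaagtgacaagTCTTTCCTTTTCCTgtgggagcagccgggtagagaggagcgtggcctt

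Values of genes with and without these letters were set side by side. The median log2 fold change at 24 h over control was 0.61 in 38 tested genes with a run of at least 10 pyrimidines and 0.56 in 14 without. At 6 h over control the medians were -0.0028 with the run and 0.04 without. Genes with CTTTCC had a 24 h median of 0.77 (14 genes), against 0.50 without (38 genes), and those with CGGAAG had 0.69 (35 genes), against 0.44 without (17 genes). These are descriptions of letters in the annotated window, and no binding was measured.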

How the data were processed

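Total RNA of 6 submandibular gland libraries was sequenced. Per the submitters' processing notes, TopHat2 2.1.0, Cufflinks 2.2.1 and mm10 were used; the deposited table gives FPKM as the authors computed them. Of 24421 entries, 27 with a date number for a symbol were left out. The control and 6 h FPKM gave back whole reads for 99.99% of 17452 genes (relative tolerance 1e-06), which sum to nearly the library size; the 24 h form is not explained in the sources used here. Values were taken as log2(FPKM + 1), which understates changes of low genes, for genes whose mean FPKM across all libraries was 1 or more, and tested in limma 3.58.1 (R 4.3.3; group means, trend, 3 residual degrees of freedom, two-sided). FPKM stood as deposited for 6 h over control and were divided by median-of-ratios factors (0.922 to 1.14) for comparisons with 24 h. Values after ± are SE of the fit. The fit was tested on simulated data. On the recovered reads limma voom was run as an added alternative, for 6 h over control.

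A gene under 0.2 FPKM in all control and 6 h libraries, or at 0 in both 24 h libraries, counted as not read in both forms and got no fold change; for other lists, genes with a mean under 1 FPKM over the control and 6 h libraries are named apart, a rule added after seeing the data. Near-identical copies were found with BLAST 2.17.0; genes, positions and transcripts are from GENCODE M21 (GRCm38). Without a strand statement, reads of overlapping or antisense genes cannot be told apart. The genes named are 12 members with known roles, the highest and lowest by level, those with the largest changes per comparison, those at 0 in one form, and the 2 with the smallest p per list; Rpl36a, Rpl21, Rpl22, Rps15a, Rps27rt, Mdm4 and the further genes behind counts of 5 or fewer were named after their values were seen. A few genes are not reported by name here and enter counts and medians alone. The members and lists were chosen with earlier results of these data known.

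Replicate numbers were not taken as pairs: with 2 numbers per group, the deviations of same-numbered libraries correlated at 0.466 (control and 6 h), 0.311 (control and 24 h) and 0.167 (6 h and 24 h) over all genes, and at -0.05, 0.04 and -0.16 over the ribosomal protein genes.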

Additional observations from a re-analysis of the deposited data

Results flagged for a closer look

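The 24 h and 6 h groups differed in 50 of the 71 ribosomal protein genes by the test of 24 h over 6 h itself, all of them higher at 24 h. Of all genes, 11.7% were called higher and 8.35% lower in that test. At 6 h over control 0 of 71 were called, against 0.694% of all genes higher and 0.317% lower. Time and the form of values cannot be told apart here.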

How the results depend on the processing

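At 6 h over control, 0 ribosomal protein genes were called under every alternative run (other scalings, pseudocount 0.1, no filter, the 2 groups alone, the replicate block, voom, each library left out). For 24 h over control the count and median were 52 and 0.67 (10.1% of all genes called higher, 7.57% lower). For 24 h over 6 h they were 50 and 0.63 (11.7% and 8.35%). Where a count below has no share of all genes beside it, a general loss of calls cannot be told apart from one in these genes. On FPKM as deposited the medians were 0.92 and 0.89. Under quantile normalization the counts and medians were 13 and 0.10 (8.45% of all genes higher, 8.07% lower), and 12 and 0.10 (9.83% and 8.97%). With centring by exon length, added after seeing the data, they were 33 (either direction) and 0.38 (8.5% of all genes higher, 6.54% lower), and 29 and 0.29 (9.88% and 7.44%). Without control replicate 1 and 24 h replicate 2 they were 13 and 0.61, and 21 for 24 h over 6 h. With no expression filter the count for 24 h over 6 h was 32. Leaving out each library in turn gave counts of 33 (without 24 h replicate 2) to 48 and medians of 0.64 to 0.71 for 24 h over control. For 24 h over 6 h it gave counts of 22 (without 6 h replicate 1) to 48 and medians of 0.55 to 0.64; the counts were 29 without 6 h replicate 2, 31 without 24 h replicate 1 and 28 without 24 h replicate 2. The cause was not tested. With the replicate block the counts were 0, 49 and 48: Rpl22, Rpl27 and Rps4x lost their call at 24 h over control, and Rps4x and Rps9 at 24 h over 6 h (Rps4x 0.43 in both, limma adjusted p = 0.0558 and 0.0525).

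All 71 genes lay above 0 at 24 h over control and 70 at 24 h over 6 h; under quantile normalization 28 and 24 lay below 0, and with centring by exon length 7 and 12. Named genes with a call that turned direction are given here. Under quantile normalization, 24 h over control was -0.044 for Rpl23, -0.28 for Rplp1 and -0.31 for Rps4x, and 24 h over 6 h was -0.051 for Rpl23 and -0.25 for Rps4x. With centring by exon length, 24 h over control was -0.24 for Rplp1 and -0.55 for Rplp2, and 24 h over 6 h was -0.21 for Rplp1, -0.57 for Rplp2 and -0.26 for Rps28.

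Without the 20 highest entries the ribosomal protein share of the FPKM sum was 9.43 and 9.53% (control), 9.95 and 9.62% (6 h), 15.6 and 14.0% (24 h). Over entries above 0 in all 6 libraries it was 5.04 and 4.73%, 4.95 and 4.77%, and 7.93 and 7.65%, in that order of groups. With 2 libraries per group, the median interval half-width at 6 h over control was 0.28 before adjustment over all genes. Changes of that size or larger could therefore go without a call. The depth at 24 h is unknown.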
